A study of Mus musculus with 19 samples.

Results

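The transcripts described here come from 35 genes, of the 24343 gene symbols listed in the deposited tables, that serve protein folding and secretion in the endoplasmic reticulum (ER) and the response to ER stress. They were taken by name, with no threshold on a measured value, and all 35 were listed in every one of the 19 libraries. The set holds 14 chaperones and folding enzymes, 9 stress sensors and transcription factors, 4 genes of ER-associated degradation, 5 genes of protein translocation into the ER and 3 genes of the COPII coat. RNA had been sequenced from basal, luminal and stromal cells that were sorted by flow cytometry from mouse anterior prostates. Lgr5-DTR-eGFP mice, which carry a fusion of the diphtheria toxin receptor and a green fluorescent protein at Lgr5 and were treated with diphtheria toxin, gave 3 basal, 3 luminal and 4 stromal libraries. Wild type mice gave 3 libraries of each population, 9 in all. The comparison was made to ask what changes in each population when the stromal cells that express Lgr5, a receptor of the Wnt pathway, are ablated.

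The labels list C57BL/6 mice from a commercial breeder and Lgr5-DTR-eGFP mice from another laboratory. They give no age, do not say whether the wild type mice received toxin, and do not name the antibodies of the sort. Genotype and source of the animals therefore change together, the toxin possibly with them, and they cannot be told apart. The toxin can act on any cell in which Lgr5 drives the receptor, and the number of Lgr5 alleles that carry the receptor is not given. Whether the replicates of a group were different animals is not in the labels, and each p-value is relative to a spread among libraries that is possibly technical. In sorted bulk samples, fewer cells of a type and less RNA per cell cannot be told apart.

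Secreted and membrane proteins enter the ER through the Sec61 channel, are folded there by chaperones and disulfide isomerases, and leave in vesicles formed by the COPII coat. Proteins that do not fold are pulled back into the cytosol and degraded, which is called ER-associated degradation. Unfolded proteins in the ER activate the sensors IRE1 (gene Ern1), PERK (Eif2ak3) and ATF6, which raise transcription of chaperone and degradation genes through XBP1, ATF4 and ATF6 and slow translation. Luminal cells are the secretory cells of the prostate epithelium, basal cells line the epithelium beneath them, and the stroma holds fibroblasts and smooth muscle that secrete matrix.

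The libraries held 5.26 to 9.38 gigabases on annotated transcripts, and 9209 to 10819 genes reached 1 FPKM (fragments per transcript length and library size, the unit of all values). In stromal cells Lgr5 averaged 44.2 ± 29.0 FPKM in wild type (SD, n = 3) and 0.916 ± 0.338 FPKM in toxin-treated Lgr5-DTR mice (SD, n = 4), where it fell by 4.40 on the log2(FPKM + 1) scale (SE 0.35, limma adjusted p = 0.000318). In luminal cells it was low but also lay lower without overlap, at 0.612 ± 0.0585 against 1.82 ± 0.242 FPKM (SD, n = 3 each, -0.80, SE 0.22, adjusted p = 0.0779), which missed the threshold. Defining markers matched the sorted populations: 20 basal markers summed to 12602 to 16172 FPKM in wild type basal libraries against 42.6 to 719.5 FPKM in the luminal and stromal ones, and 20 fibroblast markers to 15263 to 18682 FPKM in stromal libraries against 222 to 1235 FPKM in the epithelial ones. The 19 luminal markers summed to 28807 to 32163 FPKM in wild type luminal libraries, but also to 5093 to 6034 FPKM in basal ones. A low-data status on 424 transcripts marked 7 of the tables, spread over 5 of the 6 groups (none of them wild type stromal), and these are called the processing set. No 2 libraries held identical values.

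Wild type luminal cells held the highest levels of the set. Together the 35 genes made up 3.15 ± 0.0509% of all summed FPKM in wild type luminal cells, against 1.34 ± 0.139% in stromal and 0.929 ± 0.0414% in basal cells (SD, n = 3 each). In the Lgr5-DTR groups the share was 2.75 ± 0.251% in luminal (SD, n = 3), 1.29 ± 0.133% in stromal (SD, n = 4) and 0.762 ± 0.205% in basal cells (SD, n = 3). By group mean, 25 of the 35 genes were highest in wild type luminal cells and 4 more (Pdia3, Pdia4, Ern1 and Ssr2) in Lgr5-DTR luminal cells. Of the other 6, Creb3l1, Atf4 and Dnajb9 were highest in wild type stromal, Xbp1 and Ddit3 in Lgr5-DTR stromal, and Trib3 in Lgr5-DTR basal cells. These orders rest on group means, and neighbouring groups often overlapped. Creb3l4 was the 1 gene that stayed under 10 FPKM in every library.

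**Figure D1:**
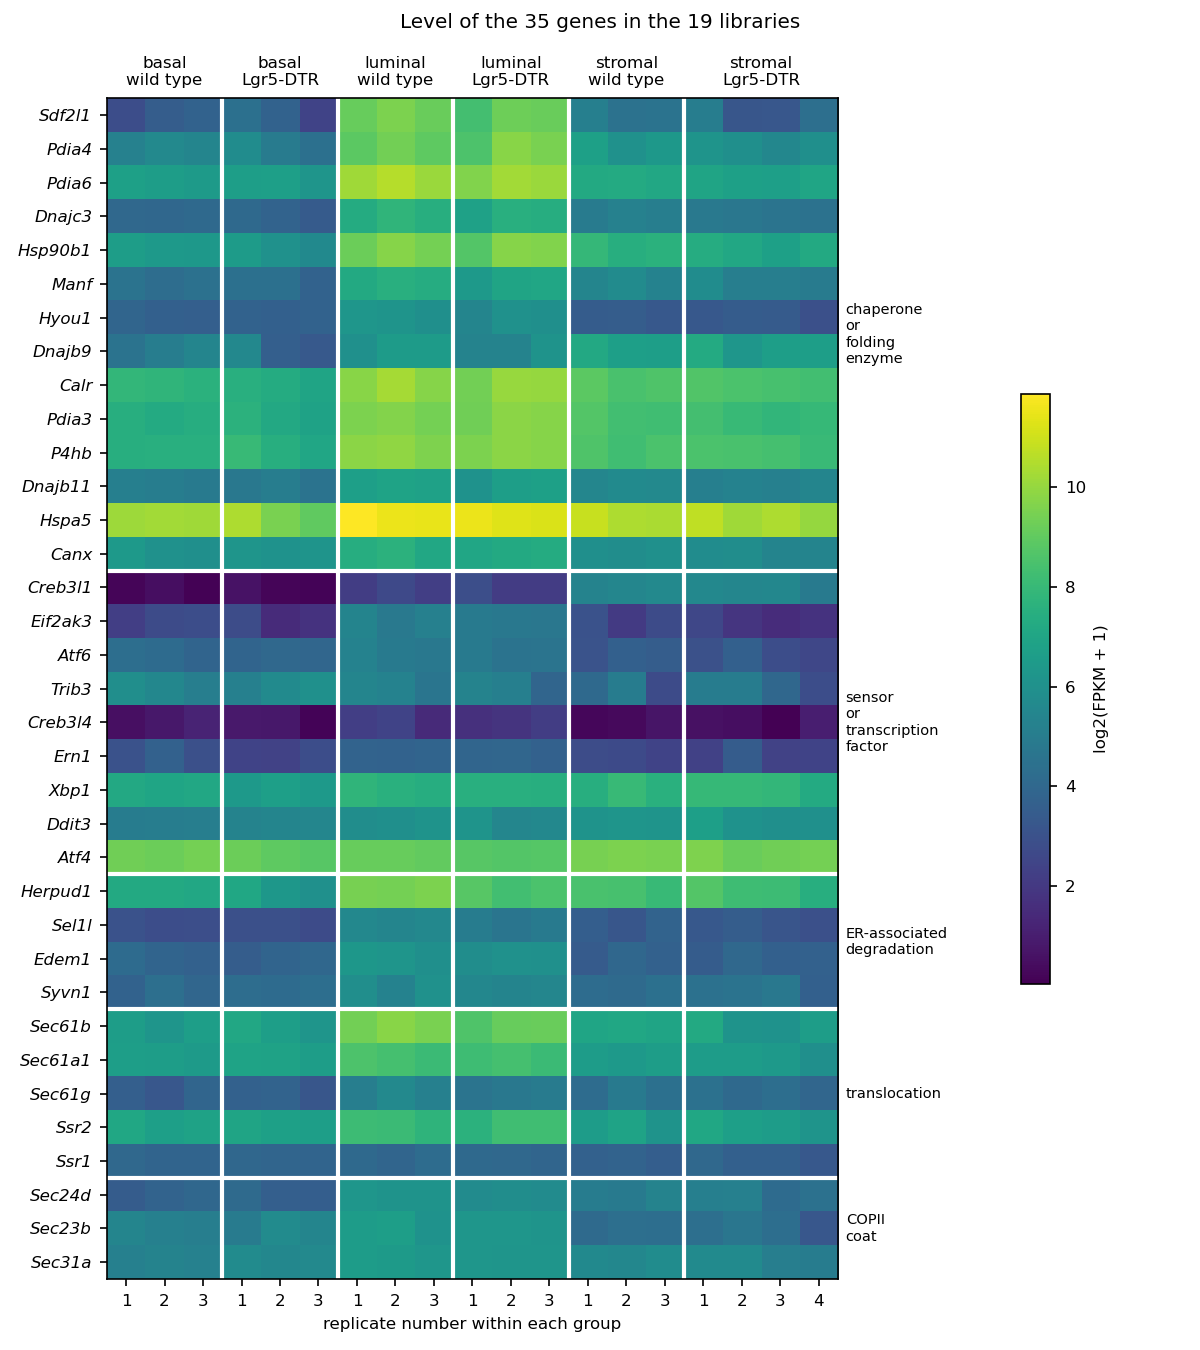
Level of the 35 genes (rows, by role) in the 19 libraries (columns, by group and replicate), as log2(FPKM + 1) on the colour scale. The 6 luminal columns stand out in most rows of each role except the sensors and factors. Hspa5 has the highest values of the map (up to 3771 FPKM), and Creb3l1 is high in the 7 stromal columns.

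In wild type mice, the secretory set was higher in luminal than in basal cells in nearly all its members. Of 35 genes tested, 32 were higher and 0 lower, where 36.8% of all 11566 genes tested were higher and 25.5% lower (62.3% called in all, limma adjusted p under 0.05). All 14 chaperones, all 4 degradation genes, all 3 coat genes, 4 of 5 translocation genes and 7 of 9 sensors and factors were higher. The median difference of the 35 genes was 1.77 on the log2(FPKM + 1) scale, against 0.14 over all genes tested. In 32 genes each luminal library lay above each basal library, as 40.1% of all genes did. Against stromal cells 29 of 35 genes were higher and 2 lower in luminal cells (39.3% and 28.5% of all genes, 67.8% called in all), with a median of 1.47 against 0.23 over all genes. Scaling moved the luminal minus basal median of all genes by -0.18 (quantile) and -0.15 (TMM), with the median of the 35 genes at 1.83 and 1.54. All stand on the log2(FPKM + 1) scale, which understates differences of genes with low values.

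The promoters of several of these genes carry the ER stress response element (ERSE), the element through which ATF6 and XBP1 are known to act, and they are shown because the levels of these genes were high together in luminal cells. The search used CCAAT and CCACG with 9 bases of any kind between them for ERSE, and ATTGG and CCACG with 1 base between them for the shorter ERSE-II, on both strands, in the 250 bases before the transcription start given by RefSeq (GRCm38.p6). Both patterns hold the letters CCACG, and no window printed here holds a whole match of both. The Herpud1 window ends in CCAAT, 9 bases and CCAC, 1 letter short of an ERSE, and the next base was not searched. ERSE was found in 37 of 32851 promoters in the table (0.113%) and in 7 of the 29 member genes with a promoter there (24.1%): Calr, Canx, Dnajc3, Hsp90b1, Hspa5, Pdia6 and Syvn1. The first share counts promoters and the second genes, which had 33 promoters. The set was taken by name for the response in which this element is known to act, so the 2 shares are no test of it. ERSE-II was found in 10 promoters (0.0304%), among them that of Herpud1. Hyou1, Manf, Atf6, Creb3l1, Sec61a1 and Ssr2 had no entry. The RefSeq start of Herpud1 lies upstream of the start in the deposited tables. The search is a description of letters in a window and shows no binding. Capitals mark the fixed letters of the match, on the strand of the gene, so that an ERSE on the opposite strand shows as CGTGG followed by ATTGG. The whole windows of Hspa5 (chr2:34771840-34772089, plus strand) and Herpud1 (chr8:94386179-94386428, plus strand) are:
Hspa5: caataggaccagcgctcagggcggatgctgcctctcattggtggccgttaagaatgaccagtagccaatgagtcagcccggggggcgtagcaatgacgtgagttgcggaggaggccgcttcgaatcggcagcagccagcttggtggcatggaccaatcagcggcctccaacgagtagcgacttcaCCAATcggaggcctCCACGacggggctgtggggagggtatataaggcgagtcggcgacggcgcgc
Herpud1: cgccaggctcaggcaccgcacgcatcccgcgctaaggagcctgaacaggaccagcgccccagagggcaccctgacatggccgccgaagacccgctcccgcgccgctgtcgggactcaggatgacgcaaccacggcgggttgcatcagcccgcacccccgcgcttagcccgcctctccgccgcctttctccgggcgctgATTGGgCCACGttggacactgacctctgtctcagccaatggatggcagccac
Shorter stretches hold the matches of Hsp90b1 (chr10:86705518-86705671, minus strand), Calr (chr8:84847060-84847108, minus strand), Canx (chr11:50325785-50325833, minus strand), Dnajc3 (chr14:118937812-118937860, plus strand), Pdia6 (chr12:17266476-17266524, plus strand) and Syvn1 (chr19:6046517-6046565, plus strand):
Hsp90b1: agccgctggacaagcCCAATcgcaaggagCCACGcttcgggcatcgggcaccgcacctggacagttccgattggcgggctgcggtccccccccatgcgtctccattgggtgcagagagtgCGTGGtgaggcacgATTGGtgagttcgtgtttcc
Calr: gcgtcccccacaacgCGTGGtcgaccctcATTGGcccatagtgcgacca
Canx: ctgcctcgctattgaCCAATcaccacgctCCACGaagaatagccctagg
Dnajc3: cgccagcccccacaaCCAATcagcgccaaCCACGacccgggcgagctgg
Pdia6: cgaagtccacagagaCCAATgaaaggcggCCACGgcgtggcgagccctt
Syvn1: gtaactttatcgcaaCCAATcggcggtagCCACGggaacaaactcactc
Hsp90b1 alone held 2 matches, 1 on each strand. In Hspa5 the match began 65 bases before the start and in Herpud1 52 bases before it. All 8 genes were higher in wild type luminal than in basal cells, with differences from 1.27 (Canx) to 3.65 (Pdia6) on the log2 scale. So were 24 member genes in whose window no match was found or that had no entry, from 0.48 (Xbp1) to 5.90 (Sdf2l1).

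**Figure D2:**
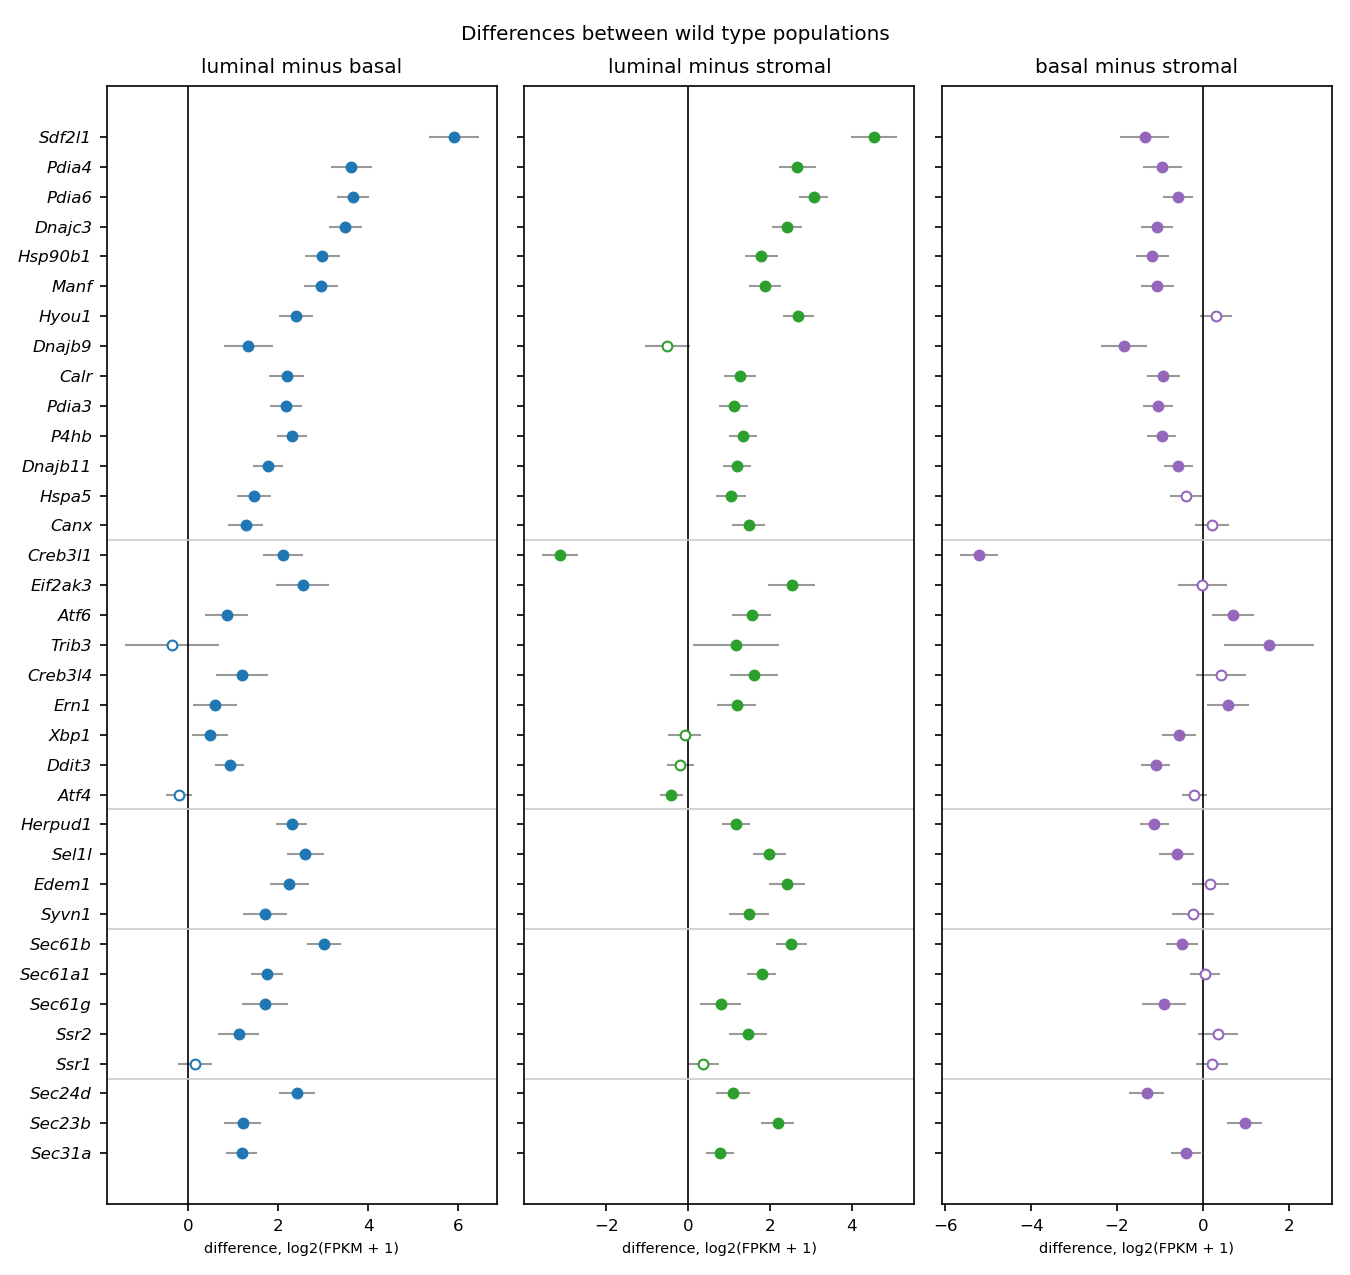
Difference between wild type populations for each of the 35 genes on the log2(FPKM + 1) scale, with 95% confidence intervals of the limma fit on the 9 wild type libraries. Filled points passed the adjusted p of 0.05. Nearly all points lie to the right of 0 for luminal cells against either other population, and 20 filled points lie to the left of 0 for basal minus stromal cells.

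Among chaperones, the widest differences were in Sdf2l1, Pdia4 and Pdia6, and the highest levels in Hspa5. Sdf2l1 (chromosome 16, 17130138 to 17132383 of mm10), which encodes a partner of the chaperone BiP in the ER, measured 551, 739.6 and 578 FPKM in luminal, 6.11, 10.4 and 12.7 FPKM in basal and 34.7, 21.3 and 22.6 FPKM in stromal libraries. Every luminal library lay far above every basal and stromal library. The luminal mean of 623 ± 102 FPKM was 63.8 times the basal mean of 9.77 ± 3.37 FPKM (SD, n = 3 each), a log2 difference of 5.90 (SE 0.26, adjusted p = 7.89e-09). The difference from stromal cells was 4.54 (SE 0.26, adjusted p = 1.22e-08). Sdf2l1 in the Lgr5-DTR libraries measured 327, 623 and 586 FPKM in luminal, 20.5, 12.5 and 4.27 FPKM in basal and 32.6, 8.13, 8.45 and 19.7 FPKM in stromal libraries, with luminal libraries again above the rest and basal and stromal ones overlapping.

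Pdia4 (chromosome 6, 47796141 to 47813512), a disulfide isomerase, measured 473, 649 and 485 FPKM in luminal, 36.5, 48.5 and 42.4 FPKM in basal and 107, 63.9 and 81.2 FPKM in stromal libraries. Luminal libraries did not overlap with the others, and the luminal and basal means differed by 3.62 (SE 0.21, adjusted p = 4.53e-08). Pdia4 in the Lgr5-DTR libraries measured 382, 874 and 732 FPKM in luminal, 53.8, 29.9 and 20.3 FPKM in basal and 69.8, 61.1, 44.9 and 59.4 FPKM in stromal libraries, with luminal replicate 1 well below the other luminal replicates. Pdia6 (chromosome 12, 17266595 to 17284770), another isomerase, which binds BiP, measured 1183, 1489 and 1092 FPKM in luminal, 109.7, 97.3 and 88.1 FPKM in basal and 148, 155 and 140.1 FPKM in stromal libraries. It was 12.8 times as high in luminal as in basal cells (3.65, SE 0.16, adjusted p = 8.35e-09) and 8.5 times as high as in stromal cells (3.07, SE 0.16, adjusted p = 7.3e-09). Pdia6 in the Lgr5-DTR libraries measured 795, 1206 and 1108 FPKM in luminal, 103, 103 and 73.8 FPKM in basal and 123, 109.7, 103 and 129 FPKM in stromal libraries. Its annotated span overlaps that of Atp6v1c2, and that of Pdia4 overlaps Mir704, so reads shared with those genes make both levels less certain.

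Hspa5 (chromosome 2, 34772090 to 34776529) encodes BiP, the main HSP70 chaperone of the ER, and was the most abundant of the 35 genes in each population. It measured 3771, 2984 and 2866 FPKM in luminal, 1115, 1192 and 1174 FPKM in basal and 1913, 1388 and 1345 FPKM in stromal libraries. By FPKM it had a median rank of 9 among all genes in luminal, 27 in stromal and 31 in basal wild type libraries. The luminal mean was 2.76 times the basal mean (1.46, SE 0.17, adjusted p = 1.18e-05) and 2.07 times the stromal mean (1.06, SE 0.17, adjusted p = 0.000125), while basal and stromal libraries differed by -0.40 (SE 0.17, adjusted p = 0.063), which missed the threshold. So the gene with the highest level had one of the smaller differences among chaperones. Dnajc3, a co-chaperone that also inhibits PERK, had 184 ± 31.5 FPKM in luminal and 15.3 ± 0.457 FPKM in basal cells (3.49, SE 0.17, adjusted p = 1.37e-08). Hsp90b1, which encodes the HSP90 chaperone of the ER, had 709 ± 130.3 and 88.7 ± 7.56 FPKM (2.97, SE 0.18, adjusted p = 6e-08), and Manf, a secreted factor induced by ER stress, 166 ± 17.4 and 20.7 ± 2.35 FPKM (2.94, SE 0.18, adjusted p = 5.79e-08; SD, n = 3 each). The lectin chaperones Calr and Canx, which hold sugar-bearing proteins until they fold, were higher in luminal than in basal cells by 2.18 and 1.27 on the log2 scale. The other 5 (Pdia3, P4hb, Dnajb11, Hyou1 and Dnajb9) were higher by 1.33 (Dnajb9) to 2.39 (Hyou1). Dnajb9, a co-chaperone that binds IRE1, was the exception against stromal cells, with 117 ± 25.4 FPKM in stromal and 82.0 ± 16.9 FPKM in luminal cells (SD, n = 3 each), a difference of -0.50 (SE 0.25, adjusted p = 0.0905) that missed the threshold.

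Sensors and transcription factors showed smaller and less uniform differences than the chaperones. Creb3l1 (chromosome 2, 91982328 to 92024170), a membrane-bound factor known for its role in collagen secretion, was highest in stromal cells. It measured 3.52, 5.26 and 3.76 FPKM in luminal, 0.132, 0.386 and 0.0828 FPKM in basal and 39.9, 42.8 and 48.6 FPKM in stromal libraries, and all stromal libraries lay above all luminal ones, which lay above all basal ones. The basal minus stromal difference was -5.22 (SE 0.20, adjusted p = 6.34e-10) and the luminal minus stromal difference -3.12 (SE 0.20, adjusted p = 3.97e-08). Creb3l1 in the Lgr5-DTR libraries measured 6.48, 3.35 and 3.40 FPKM in luminal, 0.537, 0.145 and 0.105 FPKM in basal and 46.7, 42.8, 44.6 and 28.5 FPKM in stromal libraries, in the same order of populations. Its relative Creb3l4, which is known from prostate, was low throughout, with 3.28 ± 1.36 FPKM in luminal, 0.844 ± 0.452 FPKM in basal and 0.356 ± 0.235 FPKM in stromal cells (SD, n = 3 each), and was higher in luminal cells than in either other population.

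Eif2ak3 (chromosome 6, 70844527 to 70905240), the gene of the sensor PERK, measured 41.0, 27.4 and 36.2 FPKM in luminal, 3.72, 5.66 and 6.20 FPKM in basal and 7.08, 3.20 and 5.78 FPKM in stromal libraries. Luminal libraries stood apart (2.54, SE 0.27, adjusted p = 4.87e-06 against basal, 2.53, SE 0.27, adjusted p = 3.22e-06 against stromal), while basal and stromal libraries overlapped. Eif2ak3 in the Lgr5-DTR libraries measured 29.5, 26.2 and 25.9 FPKM in luminal, 5.90, 1.81 and 2.47 FPKM in basal and 4.94, 2.61, 1.89 and 2.40 FPKM in stromal libraries. Atf6 (chromosome 1, 170704457 to 170867771), the sensor that is itself cut into a transcription factor, measured 38.6, 28.4 and 26.04 FPKM in luminal, 19.2, 17.2 and 13.6 FPKM in basal and 7.42, 11.8 and 10.5 FPKM in stromal libraries. It was called in all 3 pairs of populations, at 0.85 (SE 0.22, adjusted p = 0.00503) for luminal minus basal, 1.56 (SE 0.22, adjusted p = 4.49e-05) for luminal minus stromal and 0.71 (SE 0.22, adjusted p = 0.0162) for basal minus stromal. Atf6 in the Lgr5-DTR libraries measured 28.1, 22.5 and 23.0 FPKM in luminal, 13.5, 15.4 and 14.5 FPKM in basal and 6.94, 11.6, 6.22 and 4.90 FPKM in stromal libraries. Ern1, whose span overlaps Mir684-1, followed the same order at 13.1 ± 0.398, 8.65 ± 3.00 and 5.25 ± 0.854 FPKM (SD, n = 3 each). All 3 pairs were called, but luminal against basal (0.59, SE 0.22, adjusted p = 0.0351) and basal against stromal (0.59, SE 0.22, adjusted p = 0.0386) were lost with no filter and with the processing set as a covariate, and the former also with quantile normalization and TMM scaling.

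The downstream factors were not led by luminal cells. Xbp1 (chromosome 11, 5520641 to 5525993), the factor that IRE1 activates by splicing its mRNA, measured 218, 185 and 173 FPKM in luminal, 143, 125 and 142 FPKM in basal and 173, 258 and 184 FPKM in stromal libraries. Luminal and stromal libraries overlapped (-0.08, SE 0.18, adjusted p = 0.7), and basal libraries were lower than both. Its luminal minus basal difference of 0.48 (SE 0.18, adjusted p = 0.0355) is small beside those of the chaperones, and its call was lost with no filter on low values, with TMM scaling, with the processing set as a covariate and without any 1 luminal or basal library but luminal replicate 3. The deposited tables list the spliced form of Xbp1 (NM_001271730, 26 bases shorter) at 0 in all 19 libraries and put the whole level on NM_013842 (85.3 to 258 FPKM), so splicing could not be compared between groups. Atf4, the factor translated when PERK is active, measured 547 ± 14.1 FPKM in luminal, 633 ± 34.4 FPKM in basal and 726 ± 14.7 FPKM in stromal cells (SD, n = 3 each). It was lower in luminal than in stromal cells (-0.41, SE 0.13, adjusted p = 0.0147), a call lost with the processing set as a covariate, and its luminal minus basal difference of -0.21 (SE 0.13, adjusted p = 0.183) missed the threshold, although it was called lower with TMM scaling. Ddit3, which encodes CHOP and overlaps Mars, was higher in luminal than in basal cells (0.91, SE 0.15, adjusted p = 0.000192) and not told apart from stromal cells (-0.19, SE 0.15, adjusted p = 0.286). Trib3, a target of ATF4 and CHOP, varied widely between libraries of a group, from 5.80 to 31.1 FPKM in wild type stromal cells, and was called higher in luminal (1.18, SE 0.47, adjusted p = 0.0464) and basal (1.55, SE 0.47, adjusted p = 0.0172) than in stromal cells, although luminal and stromal libraries overlapped and that call was lost in 6 of the 8 other settings.

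All 4 degradation genes were higher in luminal cells than in either other population. Herpud1 (chromosome 8, 94386500 to 94395358), which recruits components of the degradation complex, measured 703, 687 and 753 FPKM in luminal, 147, 147 and 139 FPKM in basal and 361, 345 and 256 FPKM in stromal libraries. The 3 populations did not overlap, with differences of 2.30 (SE 0.16, adjusted p = 1.67e-07) for luminal minus basal and -1.13 (SE 0.16, adjusted p = 6.32e-05) for basal minus stromal. Sel1l (chromosome 12, 91806043 to 91849157), the adaptor of the ubiquitin ligase, measured 45.8, 41.5 and 46.5 FPKM in luminal, 7.16, 6.19 and 6.29 FPKM in basal and 10.8, 8.22 and 12.8 FPKM in stromal libraries. All luminal libraries were above all others, and the gene was 6.81 times as high in luminal as in basal cells (2.60, SE 0.19, adjusted p = 2.21e-07). Sel1l in the Lgr5-DTR libraries measured 31.0, 23.9 and 29.0 FPKM in luminal, 6.63, 6.58 and 5.68 FPKM in basal and 8.73, 10.6, 8.07 and 6.58 FPKM in stromal libraries. Edem1 (chromosome 6, 108828641 to 108859356), which marks misfolded glycoproteins by trimming their mannose, measured 77.7, 72.9 and 61.2 FPKM in luminal, 16.9, 13.6 and 12.1 FPKM in basal and 9.98, 15.2 and 12.3 FPKM in stromal libraries. Luminal libraries stood apart (2.24, SE 0.20, adjusted p = 1.23e-06 against basal), while basal and stromal ones overlapped. Edem1 in the Lgr5-DTR libraries measured 55.8, 63.9 and 61.8 FPKM in luminal, 10.5, 13.4 and 15.03 FPKM in basal and 10.3, 15.6, 11.9 and 12.1 FPKM in stromal libraries. The ligase itself, Syvn1, whose span overlaps Mir6988 and Mrpl49, was higher in luminal than in basal cells by 1.70 (SE 0.23, adjusted p = 3.28e-05).

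Translocation genes differed in size. Sec61b (chromosome 4, 47474661 to 47483233), the beta subunit of the channel, measured 661, 872 and 711 FPKM in luminal, 99.5, 73.7 and 102 FPKM in basal and 126, 136 and 122 FPKM in stromal libraries, and Sec61b in the Lgr5-DTR libraries measured 395, 563 and 582 FPKM in luminal, 142, 101 and 73.8 FPKM in basal and 150.1, 69.4, 67.3 and 98.8 FPKM in stromal libraries. Sec61a1 (chromosome 6, 88503607 to 88518800), the pore subunit, measured 376, 337 and 272 FPKM in luminal, 102, 97.0 and 90.4 FPKM in basal and 94.8, 86.9 and 97.0 FPKM in stromal libraries, and Sec61a1 in the Lgr5-DTR libraries measured 295, 336 and 277 FPKM in luminal, 121, 115 and 98.0 FPKM in basal and 93.6, 96.3, 85.7 and 59.7 FPKM in stromal libraries. Sec61g (chromosome 11, 16501638 to 16508484), the gamma subunit, measured 33.1, 47.3 and 36.2 FPKM in luminal, 11.4, 8.48 and 14.2 FPKM in basal and 17.7, 28.3 and 20.3 FPKM in stromal libraries, and Sec61g in the Lgr5-DTR libraries measured 22.9, 26.8 and 30.6 FPKM in luminal, 12.1, 12.9 and 8.33 FPKM in basal and 20.9, 16.2, 18.7 and 14.6 FPKM in stromal libraries. In wild type mice each luminal library lay above each basal and stromal library for these 3 genes, and the luminal minus basal differences were 3.02 (SE 0.17, adjusted p = 4.34e-08) for Sec61b, 1.75 (SE 0.16, adjusted p = 1.65e-06) for Sec61a1 and 1.70 (SE 0.23, adjusted p = 4.51e-05) for Sec61g. Levels are per transcript length, and on that scale the wild type luminal means of the 3 subunits of the same channel ran from 38.9 FPKM (Sec61g) to 748 FPKM (Sec61b). Of 2 subunits of the translocon-associated protein complex, Ssr2 was higher in luminal than in basal cells by 1.12 (SE 0.21, adjusted p = 0.000558), while Ssr1, at 15.9 ± 1.83 FPKM in luminal and 14.2 ± 0.892 FPKM in basal cells (SD, n = 3 each), was not called (0.15, SE 0.17, adjusted p = 0.47, 95% interval -0.22 to 0.52).

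The 3 coat genes were higher in luminal cells than in the other populations, while basal and stromal cells differed by gene. Sec24d (chromosome 3, 123267496 to 123365636), a subunit that picks cargo, measured 76.8, 68.3 and 69.3 FPKM in luminal, 10.4, 12.9 and 14.95 FPKM in basal and 31.6, 28.3 and 39.4 FPKM in stromal libraries. Sec23b (chromosome 2, 144556229 to 144590753), its partner in the inner coat, measured 95.1, 102 and 67.4 FPKM in luminal, 41.7, 35.9 and 33.9 FPKM in basal and 16.6, 19.7 and 18.7 FPKM in stromal libraries. So basal cells were lower than stromal cells in Sec24d (-1.31, SE 0.19, adjusted p = 6.65e-05) and higher in Sec23b (0.98, SE 0.19, adjusted p = 0.000764). Sec31a (chromosome 5, 100361649 to 100416234), of the outer coat, measured 93.9, 89.7 and 75.9 FPKM in luminal, 35.4, 39.5 and 37.4 FPKM in basal and 49.97, 44.9 and 54.5 FPKM in stromal libraries, with the smallest luminal minus basal difference of the 3 (1.18, SE 0.16, adjusted p = 3.93e-05). Sec31a in the Lgr5-DTR libraries measured 74.6, 73.2 and 74.0 FPKM in luminal, 52.9, 45.4 and 47.2 FPKM in basal and 51.3, 51.0, 33.7 and 31.1 FPKM in stromal libraries, with basal above wild type and luminal below. Sec24d in the Lgr5-DTR libraries measured 53.1, 56.1 and 53.7 FPKM in luminal, 16.5, 11.5 and 10.8 FPKM in basal and 34.5, 35.3, 17.4 and 20.9 FPKM in stromal libraries. Sec23b in the Lgr5-DTR libraries measured 75.6, 76.2 and 70.0 FPKM in luminal, 30.5, 52.9 and 41.9 FPKM in basal and 19.8, 25.1, 19.2 and 8.60 FPKM in stromal libraries, and stromal replicate 4, the shallowest library of the series, was its lowest.

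Between basal and stromal cells, stromal cells were on the higher side in most of the set. Of 35 genes 20 were lower in basal cells and 4 higher (Atf6, Ern1, Sec23b and Trib3), where 29.2% of all genes tested were lower and 27.8% higher (57% called in all). The median of the 35 genes was -0.56 on the log2 scale and that of all genes was near 0. Chaperones made up 11 of the 20, such as Dnajb9 (-1.84, SE 0.25, adjusted p = 4.3e-05) and Hsp90b1 (-1.18, SE 0.18, adjusted p = 0.000119), and 3 chaperones (Hspa5, Hyou1 and Canx) were not called. These 3 wild type comparisons share their libraries in pairs, so they are not independent of each other. Leaving out 1 wild type library at a time gave 30 to 32, 30 to 31 and 18 to 24 called genes for the 3 pairs.

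Other genes of the same pathways, 156 in 5 lists taken by function, were also more often higher in luminal cells. Of 151 tested, 106 were higher (70.2%) and 17 lower (11.3%) in luminal than in basal cells, with a median of 1.09 on the log2 scale. Over all genes tested 36.8% were higher and 25.5% lower. Against stromal cells 99 were higher (65.6%) and 26 lower (17.2%), with a median of 0.98, where 39.3% and 28.5% of all genes were. Translocation, signal peptidase and oligosaccharyl transferase genes led this count, with 27 of 30 higher and 0 lower than in basal cells. Among the widest differences, Agr2, a disulfide isomerase of mucin-secreting cells, had 1595 ± 303 FPKM in luminal and 16.2 ± 2.00 FPKM in basal cells (SD, n = 3 each, log2 6.52, SE 0.58, adjusted p = 1.07e-05). Agr2 is also on the list of luminal markers, so its luminal level is no separate evidence. Bhlha15, the factor MIST1 of secretory cells, had 44.4 ± 10.7 and 0.747 ± 0.0435 FPKM (log2 4.67, SE 0.27, adjusted p = 4.24e-08), and Derl3, a degradation gene, 157 ± 62.1 and 1.19 ± 0.648 FPKM (log2 6.14, SE 0.57, adjusted p = 8.68e-06). Tmed3, a cargo receptor, had 1104 ± 289.9 and 31.7 ± 5.83 FPKM (log2 5.06, SE 0.22, adjusted p = 7.61e-09), and Sec11c, of the signal peptidase, was higher by 3.87 (SE 0.18, adjusted p = 8.47e-09). The list of other sensors and ATF4 targets was divided, with 11 of 31 higher and 11 lower in luminal than in basal cells. Its share of higher genes was close to the 36.8% of all genes. Cebpb, a factor induced by stress and inflammation, was lower (log2 -2.35, SE 0.16, adjusted p = 1.14e-07). Of the other chaperones, Ero1l, an oxidase that feeds the isomerases, was lower (log2 -1.20, SE 0.24, adjusted p = 0.000791), as was, of the transport genes, Sec24b, a relative of Sec24d (log2 -0.97, SE 0.21, adjusted p = 0.00151).

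Among the other folding genes stromal cells held higher levels than basal cells. Of 34 tested chaperones and folding enzymes outside the set, 16 were higher and 13 lower in luminal than in stromal cells (39.3% and 28.5% of all genes). In basal cells 29 of 34 were lower than in stromal cells (29.2% of all genes). Rcn3, an ER protein of the calcium-binding reticulocalbin family, had 4.26 ± 1.24 FPKM in luminal and 313 ± 17.5 FPKM in stromal cells (SD, n = 3 each, log2 -5.92, SE 0.21, adjusted p = 3.53e-10). Nupr1, a stress-induced nuclear protein, had 20.7 ± 3.97 and 629.5 ± 268 FPKM (log2 -4.80, SE 0.47, adjusted p = 6.49e-06). Ssr4, the delta subunit of the translocon-associated complex, was on the luminal side, with 872 ± 193 and 83.9 ± 4.51 FPKM (log2 3.34, SE 0.19, adjusted p = 9.9e-09). Of 19 cytosolic chaperone genes, listed for comparison, 3 were higher and 5 lower in luminal than in basal cells (36.8% and 25.5% of all genes), with a median of -0.37. Plasma cells also express the ER set strongly, and of 12 plasma and B cell markers 10 were under 1 FPKM in every wild type luminal library, Jchain, Mzb1 and Cd79a among them. Derl3 and the B cell marker Ms4a1 were not. Of 3 of these markers tested, 2 were higher and 1 lower in luminal than in basal cells (36.8% and 25.5% of all genes). The part of such cells in the luminal levels was not tested. The summed level of that list, 100.5 to 224 FPKM in those libraries, came mostly from Derl3, which is on both lists.

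In luminal cells the Lgr5-DTR libraries held less Herpud1 than the wild type ones, and most of the other 34 genes were lower by amounts that did not pass the test. Herpud1 measured 441, 309.6 and 365 FPKM in the 3 Lgr5-DTR libraries and 703, 687 and 753 FPKM in the 3 wild type libraries. The groups were far apart compared with their spread, and the mean of 372 ± 65.9 FPKM was 0.521 times the wild type mean of 714 ± 34.7 FPKM (SD, n = 3 each). On the log2(FPKM + 1) scale it fell by 0.95 (SE 0.19, limma adjusted p = 0.0292). It was the 1 gene of 35 called, where 3.14% of 10524 genes tested were called, 2.62% higher and 0.513% lower. Within the processing set Lgr5-DTR replicate 1 (441 FPKM) lay below both wild type libraries (703 and 753), and outside it the other 2 replicates (309.6 and 365) lay below the remaining wild type library (687). The call was lost when any 1 wild type library or Lgr5-DTR replicate 2 was left out (adjusted p of 0.0231 to 0.13 over the 6 such fits, log2 differences -1.08 to -0.83), and it was lost with quantile normalization and with no filter on low values (adjusted p of 0.017 to 0.114 over the 8 other settings).

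The direction in the rest of the set was mostly downward. In luminal cells 30 of the 35 differences were below 0, against 40.4% of all genes tested, and their median was -0.27 against 0.10. At an unadjusted p under 0.05, 7 genes were lower and 0 higher (6.83% and 15.8% of all genes), and in 8 genes every Lgr5-DTR library lay below every wild type library (9.63% of all genes), while in none did every one lie above (17.4%). Those 8 were Herpud1, Sel1l, Manf, Sec24d, Sec61b, Sec61g, Sec31a and Atf4. Sel1l measured 31.0, 23.9 and 29.0 FPKM in Lgr5-DTR and 45.8, 41.5 and 46.5 FPKM in wild type libraries, a difference of -0.66 (SE 0.17, adjusted p = 0.063) that missed the threshold. Sec61b differed by -0.55 (SE 0.21, adjusted p = 0.166), Sec61g by -0.52 (SE 0.19, adjusted p = 0.155) and Sec24d by -0.39 (SE 0.15, adjusted p = 0.162), none of them called. Dnajb9, at 39.2, 38.8 and 67.8 FPKM against 62.5, 93.1 and 90.5 FPKM, differed by -0.77 (SE 0.25, adjusted p = 0.119), and its groups overlapped. By role the medians were -0.46 for degradation, -0.27 for chaperones, -0.23 for sensors and factors, -0.23 for the coat and -0.11 for translocation genes. Hspa5 measured 3003, 2554 and 2369.6 FPKM against 3771, 2984 and 2866 FPKM (-0.28, SE 0.21, adjusted p = 0.445), and Pdia4 was on the higher side at 0.24 (SE 0.30, adjusted p = 0.656). More genes were called, all lower, with TMM scaling (2, Herpud1 and Sel1l), with the processing set as a covariate (3, Herpud1, Manf and Sec61b) and without Lgr5-DTR replicate 3 (3, Herpud1, Sel1l and Dnajb9). Lower calls over all genes rose in the same fits, from 54 of 10524 to 142 and 262 of 10524 and 265 of 10225. Luminal Lgr5-DTR replicate 1 was the lowest of its group in 18 of the 35 genes.

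Markers of other cell types moved in the same libraries. The 19 luminal markers summed to 19980 to 26594 FPKM in Lgr5-DTR and 28807 to 32163 FPKM in wild type luminal libraries. Pbsn, on the luminal list, averaged 8849 ± 1175 FPKM in Lgr5-DTR and 19612 ± 2617 FPKM in wild type libraries (SD, n = 3 each). It was the 1 luminal marker called of 18 tested (log2 -1.15, SE 0.23, limma adjusted p = 0.0307). The 20 fibroblast markers summed to 265 to 475 against 222 to 276 FPKM, with 8 of 20 under 1 FPKM in every Lgr5-DTR library. Of 11 fibroblast markers tested 7 were called higher and 0 lower (2.62% and 0.513% of all genes), with a median of 1.68 against 0.10 on the log2 scale. Among them Col1a1 rose from 4.39 ± 1.11 to 32.2 ± 12.2 FPKM (SD, n = 3 each, log2 2.56, SE 0.31, limma adjusted p = 0.00681). The 14 macrophage markers summed to 51.3 to 354 against 41.3 to 62.2 FPKM, with Itgam, Ptprc and Mrc1 under 1 FPKM throughout and 1 of 10 tested called higher. The 10 Schwann cell markers summed to 117 to 236 against 77 to 103 FPKM, and the 22 immediate early genes, which tissue dissociation induces, to 3942 to 5030 against 3181 to 3743 FPKM. Of 9 Schwann cell markers tested 2 were called higher and 0 lower, and of the 22 immediate early genes 1 and 0. The part of all these lists in the fall of Herpud1 and in the direction of the set was not tested. Of 148 other pathway genes tested in luminal cells, 1 rose and 1 fell (0.676% each), where 2.62% of all genes rose and 0.513% fell. Cebpb rose from 227 ± 19.3 to 438 ± 84.2 FPKM (log2 0.93, SE 0.19, adjusted p = 0.0358), and Copz2, of the COPI coat, averaged 131 ± 15.2 FPKM in wild type and fell to 59.8 ± 5.95 FPKM (SD, n = 3 each, log2 -1.12, SE 0.17, adjusted p = 0.0121). Scaling moved the median difference of all luminal genes by -0.15 (quantile) and -0.11 (TMM), and the median of the 35 genes stayed below that of all genes, at -0.23 against -0.04 and -0.40 against -0.01.

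**Figure D3:**
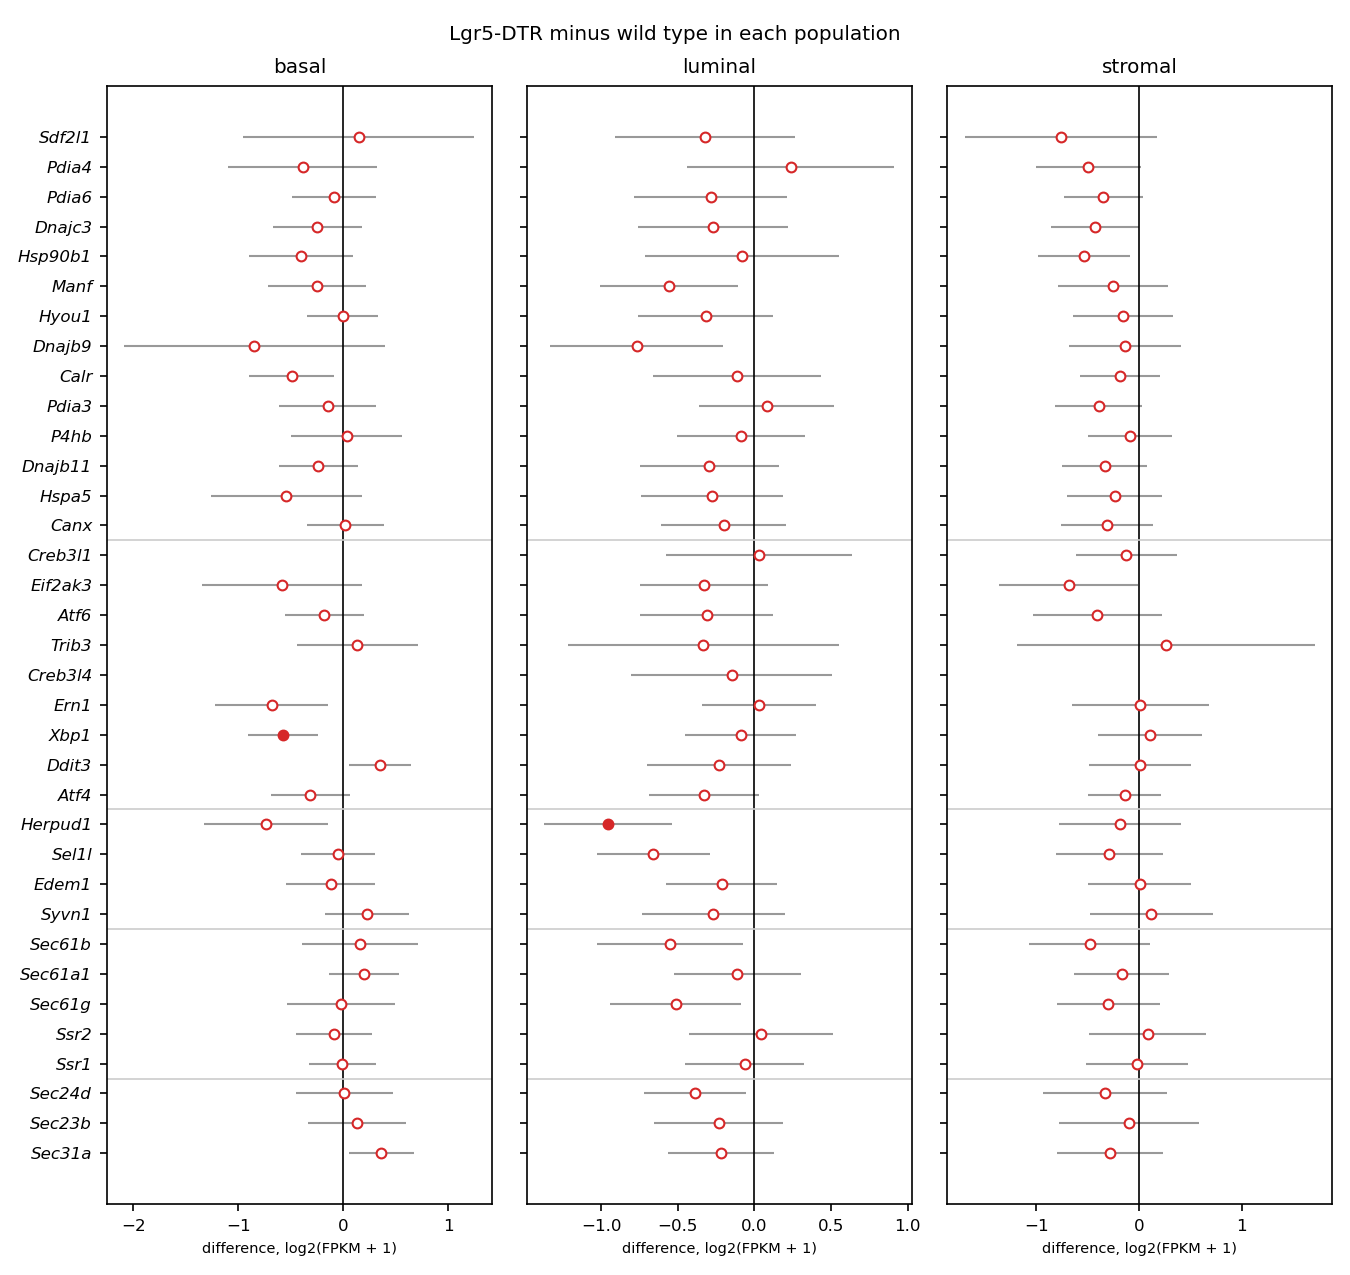
Lgr5-DTR minus wild type difference of each gene in basal, luminal and stromal cells on the log2(FPKM + 1) scale, with 95% confidence intervals; filled points passed the adjusted p of 0.05. Herpud1 in luminal and Xbp1 in basal cells are the 2 filled points, and most luminal points lie to the left of 0.

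In basal cells Xbp1 was the 1 gene called. It measured 85.3, 103 and 86.9 FPKM in the Lgr5-DTR libraries and 143, 125 and 142 FPKM in the wild type libraries, so that the groups did not overlap. The mean of 91.8 ± 9.81 FPKM was 0.670 times the wild type mean of 137 ± 9.91 FPKM (SD, n = 3 each), and on the log2 scale it fell by 0.57 (SE 0.15, limma adjusted p = 0.0401). Among 9755 genes tested, 11% were called, 6.5% higher and 4.46% lower, so 1 of 33 members is a smaller share than in the table as a whole. Within the processing set the Lgr5-DTR libraries (85.3 and 86.9 FPKM) lay below the wild type library (125), and outside it 103 lay below 143 and 142. The call was lost in 5 of the 6 fits that left out 1 library, all but the one without Lgr5-DTR replicate 1 (adjusted p of 0.0411 to 0.158, log2 differences -0.66 to -0.52). It was also lost in 3 of the 8 other settings, among them no filter on low values and the processing set as a covariate (adjusted p of 0.0179 to 0.181 over the 8).

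Most differences in basal cells were below 0, and 1 of 33 was called. Of 33 genes tested, 22 differences were below 0 (47.9% of all genes), with a median of -0.09 against 0.02 over all genes. The role medians ran from -0.31 (sensors and factors) and -0.24 (chaperones) to 0.13 (coat). At an unadjusted p under 0.05 there were 6, against 27.7% of all genes. Groups did not overlap in 6 genes, 4 lower (Xbp1, Herpud1, Calr and Ern1) and 2 higher (Ddit3 and Sec31a), where 13.7% and 17.5% of all genes did not. Herpud1 measured 135, 76.9 and 62.0 FPKM against 147, 147 and 139 FPKM (-0.74, SE 0.26, adjusted p = 0.107), and Calr 154 ± 27.5 against 215 ± 22 FPKM (SD, n = 3 each, -0.49, SE 0.18, adjusted p = 0.112). Sec31a measured 52.9, 45.4 and 47.2 FPKM against 35.4, 39.5 and 37.4 FPKM (0.36, SE 0.14, adjusted p = 0.125), and Ddit3 39.1, 42.4 and 42.8 against 31.6, 32.1 and 33.1 FPKM (0.35, SE 0.13, adjusted p = 0.121). None of these 4 was called. Creb3l1 and Creb3l4 were too low to be tested in basal cells.

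Basal Lgr5-DTR replicate 1 stood apart, and not in this set alone. It held 9990 genes at 1 FPKM against 9319 and 9209 in replicates 2 and 3, and without it lower calls over all genes went from 435 to 1287. Replicate 1 was the highest of its group in 22 of the 35 genes, and replicate 3 the lowest in 23, with no such share taken over all genes. Hspa5 measured 1359 FPKM in replicate 1 and 723 and 514 FPKM in replicates 2 and 3, against 1115, 1192 and 1174 FPKM in wild type, and Dnajb9 measured 46.8, 11.2 and 9.03 against 22.2, 32.8 and 42.4 FPKM. Without replicate 1, 8 genes were called lower (Calr, Dnajb9, Eif2ak3, Herpud1, Hsp90b1, Hspa5, Pdia4 and Xbp1), where 13.7% of genes tested were called lower in that fit. With all libraries those 7 besides Xbp1 did not pass. The 19 luminal markers summed to 6894 to 9343 FPKM in Lgr5-DTR and 5093 to 6034 FPKM in wild type basal libraries, with Dpp4, Sbp, Spink1 and Abo under 1 FPKM in both, and the 22 immediate early genes to 5328 to 7655 against 7773 to 10432 FPKM. Smooth muscle markers (10) summed to 257 to 331 against 431 to 488 FPKM, with Myh11, Des, Actg2, Mylk, Lmod1 and Synpo2 under 1 FPKM in both. Smtn alone measured 388 to 452 FPKM in the wild type basal libraries. Fibroblast markers (20) summed to 575 to 1085 against 999.1 to 1235 FPKM, with 16 of 20 under 1 FPKM in every Lgr5-DTR library. Macrophage markers (14) summed to 34.0 to 62.7 against 20.6 to 37.2 FPKM. Of the 7 tested 4 were called higher, and Adgre1, Csf1r, Itgam, Ptprc and Mrc1 were under 1 FPKM throughout. The part of these lists in the differences was not tested. Of 143 other pathway genes tested in basal cells 4 rose and 4 fell (2.8% each), smaller shares than the 6.5% and 4.46% of all genes. Atf3, a stress factor that is also on the list of immediate early genes, averaged 803 ± 217 FPKM in wild type and fell to 255 ± 131 FPKM (log2 -1.73, SE 0.36, adjusted p = 0.0191), and Stt3b, of the oligosaccharyl transferase, averaged 51.1 ± 2.44 FPKM and fell to 32.5 ± 4.35 FPKM (log2 -0.64, SE 0.15, adjusted p = 0.0268). Nupr1 rose from 20.1 ± 16.0 to 71.6 ± 26.6 FPKM (log2 1.98, SE 0.49, adjusted p = 0.0391), Faf2, of the degradation machinery, from 8.63 ± 1.11 to 16.5 ± 0.817 FPKM (log2 0.87, SE 0.15, adjusted p = 0.00999), and Pdia5 from 0.580 ± 0.352 to 1.82 ± 0.420 FPKM (SD, n = 3 each, log2 0.85, SE 0.23, adjusted p = 0.0468).

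**Figure D4:**
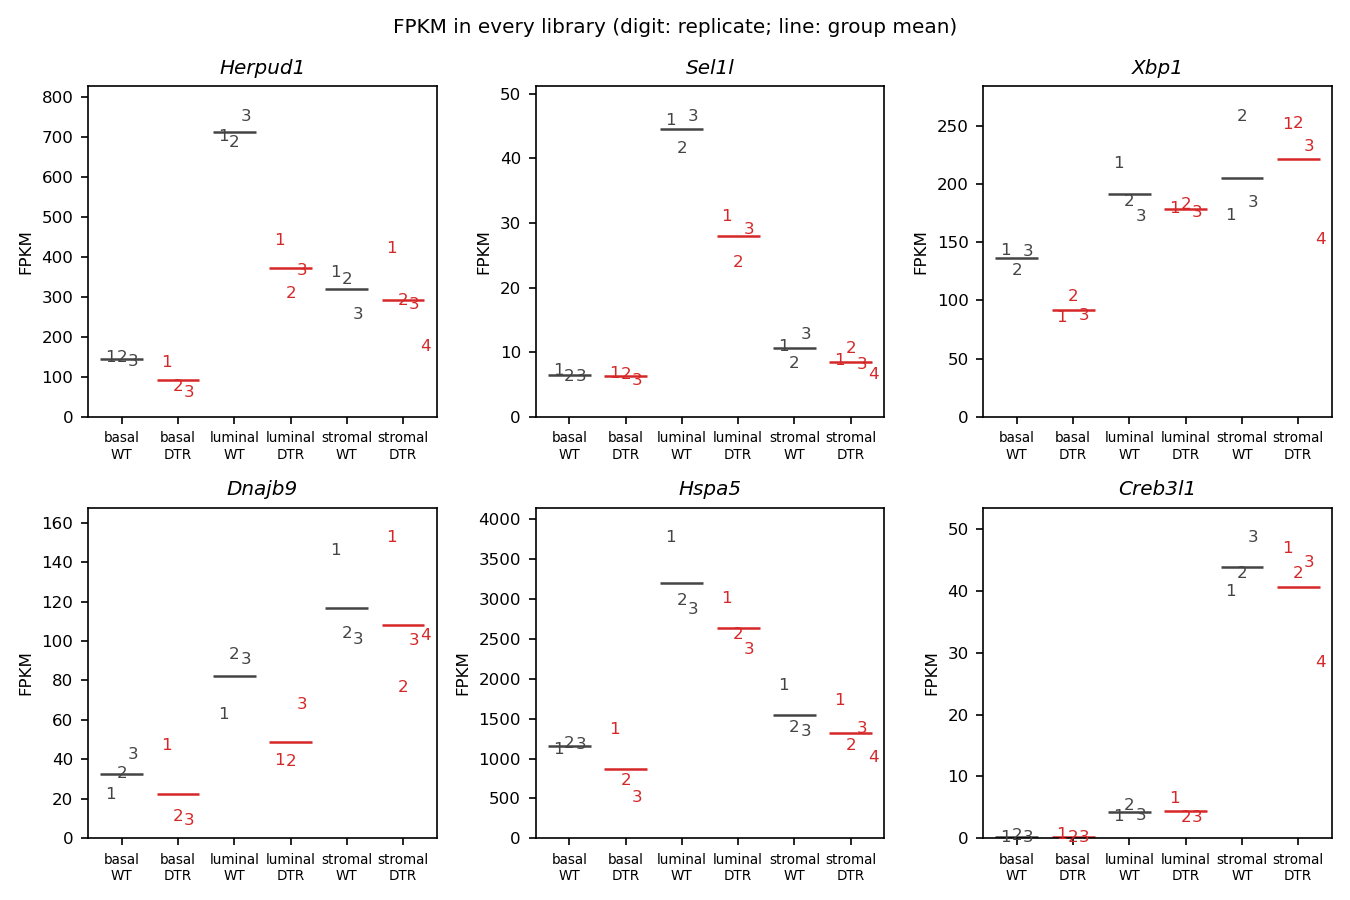
FPKM of Herpud1, Sel1l, Xbp1, Dnajb9, Hspa5 and Creb3l1 in every library, with digits for replicates and lines for group means; wild type (WT) is grey and Lgr5-DTR (DTR) red. Luminal Herpud1 and Sel1l are lower in all 3 Lgr5-DTR libraries, and basal replicate 1 lies above replicates 2 and 3 in Herpud1, Dnajb9 and Hspa5.

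In stromal cells, the population with the fall of Lgr5 that passed the test, none of the ER genes was called. Of 34 tested, 0 passed by limma at an adjusted p of 0.05 (1.17% of 10689 genes were called, 0.0655% higher and 1.1% lower), and the smallest adjusted p was 0.32 (Hsp90b1). At an unadjusted p under 0.05 there were 3, all lower (Hsp90b1, Dnajc3 and Eif2ak3), against 11.5% of all genes, or 9.49% for lower ones. Hsp90b1 measured 162, 140.4, 109 and 149 FPKM in Lgr5-DTR and 241, 176 and 192 FPKM in wild type stromal libraries (-0.54, SE 0.20, adjusted p = 0.32). It was 1 of 4 genes with no overlap, all lower (with Dnajb11, Dnajc3 and Pdia6), as were 9.39% of all genes. Herpud1 measured 421, 291, 280.3 and 176 FPKM against 361, 345 and 256 FPKM (-0.18, SE 0.27, adjusted p = 0.893), and Xbp1 251, 252, 232 and 153 against 173, 258 and 184 FPKM (0.11, SE 0.23, adjusted p = 0.939), both with overlapping groups. Of the 34 differences 27 were below 0 (61.5% of all genes). The median of the 34 genes was -0.21 against -0.09 over all genes, and -0.07 against 0.03 with quantile normalization and -0.09 against 0.02 with TMM scaling, which moved the median of all genes by 0.12 and 0.10. All 95% intervals but 3 held 0. The median SE of the 34 differences was 0.23 on the log2 scale, and the interval was wider for Sdf2l1, at -1.70 to 0.17. Hspa5 measured 1725, 1165, 1379.7 and 1017 FPKM against 1913, 1388 and 1345 FPKM (-0.24, SE 0.21, adjusted p = 0.777), again with overlap. The processing set held 1 of these stromal Lgr5-DTR libraries and no wild type one, so no value within it could be given. Creb3l4 was too low to be tested, and of 150 other pathway genes 0 rose and 0 fell. Stromal Lgr5-DTR replicate 4, the shallowest library at 5.26 gigabases, was the lowest of its group in 20 of the 35 genes and replicate 1 the highest in 20. The 20 fibroblast markers summed to 6674 to 8952 FPKM in Lgr5-DTR and 15263 to 18682 FPKM in wild type stromal libraries, and their part in these values was not tested.

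Whether the genotype difference itself differed between populations was tested as an interaction, and no ER gene passed. Between basal and luminal cells 0 of 33 were called by limma (4.26% of 9098 genes), and 5 had an unadjusted p under 0.05 (22.7% of all genes). The smallest adjusted p was that of Sec31a, which was on the higher side in basal and the lower side in luminal Lgr5-DTR cells (0.58, SE 0.19, adjusted p = 0.0958), followed by Sel1l (0.61, SE 0.21, adjusted p = 0.108). Both were called with TMM scaling, a fit whose share over all genes is not given here. Between stromal and basal cells 0 of 33 were called (2.98% of 8980 genes), with 2 at an unadjusted p under 0.05 (14.5% of all genes), and the fall of Xbp1 in basal cells differed from the stromal value by 0.68 (SE 0.30, adjusted p = 0.29). Between stromal and luminal cells 0 of 34 were called (2.51% of 9255 genes), with 1 at an unadjusted p under 0.05 (13.5% of all genes), Herpud1 (0.77, SE 0.35, adjusted p = 0.346). So the falls of Herpud1 in luminal and of Xbp1 in basal cells are not shown to differ from those in the other populations. For Herpud1 the basal and luminal values, -0.74 and -0.95, differed by 0.22 (SE 0.33, adjusted p = 0.738).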

How the data were processed

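RNA of sorted basal, luminal and stromal cells (19 libraries, 6 groups) was amplified with SMART-Seq v4, made into libraries with Nextera XT and sequenced on an Illumina HiSeq instrument, per the labels' protocols. The authors deposited FPKM values and coverage per transcript for each library, made with TopHat2, Cufflinks and the mm10 build, per the submitters' processing notes. Tool versions are not given in the sources used here. FPKM divides fragments by transcript length and library size, so a few abundant genes lower all others. The deposited coverage served only, with transcript length, to estimate the depth of each library.

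The 34535 transcripts were summed to 24343 gene symbols. Genes with a failed or capped status were left out, a filter chosen after seeing the files. No library was left out. Genes with at least 1 FPKM in at least 3 libraries were tested with limma 3.58.1 (R 4.3.3, trend and robust, statmod 1.5.0) on log2(FPKM + 1), with Benjamini-Hochberg adjustment over all genes tested and a threshold of 0.05. Each population was fitted on its own for genotype, the 9 wild type libraries together for populations, and 4 groups for each interaction, 9 comparisons in all. The model was tested on simulated data. Tables and plots used Python 3.11.15, pandas 2.3.3, numpy 2.4.6 and matplotlib 3.10.9. With no counts in the files, values carry no counting interval, and the number of libraries limits the precision.

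The members, the 5 lists of other pathway genes and the 8 marker lists were chosen with earlier results of these data known. Values in every library are given for members called in a genotype comparison or an interaction and for the 3 members of each role with the widest span of group means. Of the other lists, the named genes had the largest called difference in either direction. Other genes with values were chosen after their values were seen. Alternatives were a pseudocount of 0.1, no filter, a filter at 5 FPKM, quantile normalization, TMM scaling, the highest transcript alone, a replicate block, the processing set as a covariate, and leaving out each library.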

Additional observations from a re-analysis of the deposited data

Results flagged for a closer look

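In 3 of the 35 genes, 1 of the 4 Lgr5-DTR stromal libraries lay far from the other 3, by the ratio of its gap to the range of the group (critical value 0.829). Chance flags about 1 in 20 such groups, and 35 were tested. Manf measured 55.2 FPKM in replicate 1 against 30.2 to 33.4 FPKM (ratio 0.836), Ern1 10.3 FPKM in replicate 2 against 3.99 to 4.37 FPKM (ratio 0.911), and Xbp1 153 FPKM in replicate 4, the shallowest library, against 232 to 252 FPKM (ratio 0.833).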

How the results depend on the processing

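Counts of the 35 genes called are given here. With no filter on low values 0 were called in basal and 0 in luminal cells for genotype. Quantile normalization gave 2 of 33 in basal (Calr and Xbp1, both lower), where 633 of 9755 genes were called lower and 655 higher, and 0 in luminal cells. TMM scaling gave 2 of 35 in luminal cells (Herpud1 and Sel1l, both lower), where 142 of 10524 genes were called lower and 226 higher. It also gave 2 for the interaction of basal and luminal cells (Sec31a and Sel1l), for which the share over all genes is given only without scaling (4.26%). With the processing set as a covariate 0 were called in basal and 3 in luminal cells. Same-numbered libraries were alike in some cases only (correlations of their deviations were 0.38, 0.49 and -0.05 in stromal, -0.53, -0.23 and -0.40 in basal and 0.38, -0.12 and 0.26 in luminal cells; 0.21, -0.02 and 0.18 for the numbers 3, 5 and 6 that the titles of wild type luminal and basal libraries share). Title number 3 of wild type stromal cells gave 0.14 with luminal and 0.37 with basal cells. Stromal replicates 1 and 2, luminal replicate 1 and title number 3 in each wild type pair correlated best with their own number, while no basal replicate did. Whether same-numbered libraries share an origin is not in the labels, and the main fits do not allow for it. A block on the title number gave 32 calls for luminal against basal cells, where 4452 of 11566 genes were called higher and 3179 lower. A replicate block gave 1 in stromal (Sdf2l1), 0 in basal and 2 in luminal cells (Herpud1 and Sel1l), all lower. In those block fits 727 of 10689 stromal and 138 of 10524 luminal genes were called lower. Leaving out 1 library gave 0 to 8 in basal and 0 to 3 in luminal cells, and 0 in stromal cells and in the 3 interactions. The cause was not tested. No result turned direction. Of the other counts 135 stayed within 1.5 times of the main one, among them many that stayed at 0. The remaining 22 moved further, most of them for genotype in basal and luminal cells.

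Over all genes, genotype calls (higher and lower) in luminal cells were 276 and 54 as reported, 144 and 73 with quantile normalization, 226 and 142 with TMM scaling, 0 and 4 with no filter, 617 and 138 with the replicate block and 488 and 262 with the processing set as a covariate. In stromal cells 7 and 118 became 1 and 35 with no filter, 8 and 69 with quantile normalization, 7 and 72 with TMM scaling, 314 and 727 with the block, in which Lgr5-DTR replicate 4 has no partner and drops out in effect (43 and 189 without it and with no block), and 3 and 46 with the processing set. In basal cells 634 and 435 became 310 and 182 with no filter and 151 and 62 with the block. Leaving out 1 library also moved these counts, to 944 and 1287 in basal cells without Lgr5-DTR replicate 1 (higher share 59.3% to 42.3%) and to 177 and 113 without Lgr5-DTR replicate 2. In luminal cells they were 0 and 0 without wild type replicate 3, 20 and 6 without wild type replicate 2, 87 and 27 without Lgr5-DTR replicate 1 and 611 and 265 without Lgr5-DTR replicate 3. Without wild type replicate 3 the stromal counts were 1 and 30. The share of higher calls went from 29.9% to 44.7% (quantile) and 46.5% (TMM) for the stromal and basal interaction, and from 25.5% to 43.6% and 45.8% for basal and luminal. The planned tests of the spliced share of Xbp1 gave no value, since that transcript is listed at 0 in all 19 libraries. With no counts in the files, depth sets no limit that can be given per gene; Creb3l4 was not tested in basal and stromal cells, nor Creb3l1 in basal cells.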

Other observations

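Outside the 35 genes, a few others of the same pathways differed between populations in their genotype difference by the limma interaction test at an adjusted p of 0.05. Of those tested, 3 of 143 (stromal and basal), 3 of 147 (stromal and luminal) and 6 of 143 (basal and luminal cells) passed, and all genes did so at 2.98%, 2.51% and 4.26%, so the shares of the pathway genes were not above the background. Ddit4, a stress-induced inhibitor of mTOR signalling, differed between stromal and basal cells by 1.97 (SE 0.38, adjusted p = 0.0106) on the log2(FPKM + 1) scale, and Nupr1 by -2.39 (SE 0.59, adjusted p = 0.0404). Pdia5 differed between the same populations by -1.27 (SE 0.32, adjusted p = 0.0413). Fkbp10, a prolyl isomerase of the ER that acts on collagen, differed between stromal and luminal cells by -1.83 (SE 0.37, adjusted p = 0.0166) and between basal and luminal cells by -1.65 (SE 0.36, adjusted p = 0.0232). Derl2, a degradation gene, differed between basal and luminal cells by 1.24 (SE 0.27, adjusted p = 0.0207), and Atf3 by -1.74 (SE 0.44, adjusted p = 0.0425). Each value is the first population's difference minus the second's, and the comparisons share libraries. In luminal cells 20 fibroblast markers summed to 265 to 475 FPKM in Lgr5-DTR and 222 to 276 FPKM in wild type libraries, with 7 of 11 tested called higher. In stromal cells they summed to 6674 to 8952 and 15263 to 18682 FPKM, with 6 of 20 tested called lower. The part of these markers in the Fkbp10 differences was not tested.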
